A study of Mus musculus with 12 samples.

Results

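The Polycomb complex genes described here are Ezh1, Ezh2, Eed and Suz12 of Polycomb repressive complex PRC2 and Ring1, Bmi1, Pcgf2, Cbx2, Cbx7 and Cbx8 of PRC1. They were chosen by name, as subunits known to repress the Cdkn2a locus, and are 10 of the 51826 genes in the deposited count table. Their expression was measured by RNA sequencing in 12 mouse pre-B cell lines from the bone marrow of 2 C57BL/6 mice. These precursors of B lymphocytes need interleukin 7 (IL7) in culture. Marrow was grown in IL7 for 7 days, after which retroviral transduction gave, per mouse, 3 lines carrying the empty vector pMIG (EV) and 3 carrying BCR-ABL1, the oncogenic kinase of Philadelphia chromosome-positive leukemia. All lines were first kept with IL7 for 48 h. The BCR-ABL1 lines then went without IL7 for 1 week, whereas the EV lines stayed in IL7 for a similar time and were sorted for GFP, so that BCR-ABL1 and the loss of IL7 cannot be told apart. Lines are named by mouse and letter, such as EV 1A.

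Polycomb proteins keep silenced genes silent. PRC2 places methyl groups on lysine 27 of histone H3 through its catalytic subunit, Ezh2 or its paralog Ezh1, and needs Eed and Suz12 for activity and stability. PRC1 places ubiquitin on histone H2A through Ring1 or its paralog Rnf2, a Pcgf protein such as Bmi1 or Pcgf2 joins the catalytic core, and a Cbx protein reads the methyl mark left by PRC2. In cultured lymphoid precursors both complexes are known for holding down Cdkn2a, which encodes the cell cycle inhibitor Ink4a and, from another start and reading frame, the p53 activator Arf.

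Promoter sequences are shown for the members that were lowest in BCR-ABL1 relative to EV lines, Ezh1 and Ring1, for Ezh2 as the paralog of Ezh1, and for both starts of Cdkn2a, their common target. They were read from RefSeq on GRCm38.p6, each with 250 bases before and 50 bases after the start of transcription, written 5′ to 3′ on the strand of the gene. Capitals mark matches to the E2F motifs TTTCCCGC, TTTGGCGC, TTTCGCGC and TTTGCCGC, searched on both strands, since E2F factors are known regulators of Ezh2 and Arf.
Ezh2, chr6:47594981-47595280, minus strand: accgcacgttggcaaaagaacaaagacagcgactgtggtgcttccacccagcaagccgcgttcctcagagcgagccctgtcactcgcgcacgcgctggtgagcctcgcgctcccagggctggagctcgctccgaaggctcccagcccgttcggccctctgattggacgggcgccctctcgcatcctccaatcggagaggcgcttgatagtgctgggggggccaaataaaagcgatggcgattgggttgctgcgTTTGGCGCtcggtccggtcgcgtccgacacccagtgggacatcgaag
Ezh1, chr11:101226414-101226713, minus strand: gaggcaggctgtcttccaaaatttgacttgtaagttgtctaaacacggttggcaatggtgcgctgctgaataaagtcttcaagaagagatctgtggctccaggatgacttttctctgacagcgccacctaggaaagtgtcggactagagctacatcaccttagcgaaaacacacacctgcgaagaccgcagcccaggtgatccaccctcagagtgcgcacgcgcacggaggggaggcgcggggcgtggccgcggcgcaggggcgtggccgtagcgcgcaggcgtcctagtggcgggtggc
Ring1, chr17:34024631-34024930, minus strand: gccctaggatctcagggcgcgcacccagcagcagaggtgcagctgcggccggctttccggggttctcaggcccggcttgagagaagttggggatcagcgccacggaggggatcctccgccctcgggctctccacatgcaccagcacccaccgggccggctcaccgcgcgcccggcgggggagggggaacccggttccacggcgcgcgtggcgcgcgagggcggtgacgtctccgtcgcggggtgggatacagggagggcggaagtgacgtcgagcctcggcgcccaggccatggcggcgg
Cdkn2a upstream start, chr4:89294570-89294869, minus strand: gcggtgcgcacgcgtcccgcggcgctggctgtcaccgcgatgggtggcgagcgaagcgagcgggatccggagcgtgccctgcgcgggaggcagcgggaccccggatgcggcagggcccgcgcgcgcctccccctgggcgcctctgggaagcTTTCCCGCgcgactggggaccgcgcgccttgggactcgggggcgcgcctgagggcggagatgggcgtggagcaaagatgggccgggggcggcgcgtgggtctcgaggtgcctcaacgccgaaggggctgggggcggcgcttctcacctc
Cdkn2a downstream start, chr4:89282143-89282442, minus strand: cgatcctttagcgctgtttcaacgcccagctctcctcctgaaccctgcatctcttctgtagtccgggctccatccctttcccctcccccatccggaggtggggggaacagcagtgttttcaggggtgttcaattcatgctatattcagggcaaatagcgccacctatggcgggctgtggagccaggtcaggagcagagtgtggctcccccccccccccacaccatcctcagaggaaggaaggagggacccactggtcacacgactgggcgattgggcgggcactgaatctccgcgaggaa

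Of 32851 promoters of this length in the same table, 2.26% held such a motif. Among the 9 members with an entry, all but Cbx2, the motif was found in Ezh2, as TTTGGCGC starting at base 4 after the start, and in Suz12, as TTTCCCGC starting 219 bases before it. The upstream promoter of Cdkn2a, that of Arf, held TTTCCCGC starting 99 bases before the start, and the downstream one, that of Ink4a, held none in this window. The member promoters contained 10 to 41 CpG dinucleotides with a median of 24, against a median of 7 over all promoters. These matches describe the letters and not the binding of a factor.

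The depth, as total gene counts, was 34791011 to 64547911 in EV and 45230023 to 66011225 in BCR-ABL1 libraries, and the smallest count of any member was 44, for Pcgf2 in EV 1B. Reads were counted on exons, and exons of Ezh2, Eed, Suz12 and Cbx7 share 1.54% to 6.82% of their length with a gene on the opposite strand. All 10 B lineage markers examined passed the filter on low counts. Summed over each list, markers of mast cells, stroma and T or NK cells were at most 1.75 CPM (counts relative to the TMM-scaled library size) in any line, those of myeloid cells at most 7.51 CPM and those of red cells at most 12.7 CPM. EV 2A and EV 2B stood apart from the other EV lines. They had the lowest summed level of 18 proliferation genes, 5734 and 4998 CPM against 6509 to 7841 CPM in the remaining EV lines (BCR-ABL1 lines, 7645 to 8696 CPM), and the highest summed level of B lineage markers, 7388 and 8216 CPM. EV 2A also carried counts above the floor of 3 for 28 of 36 developmental genes that Polycomb is known to silence, whereas at most 9 of the 36 passed it in any other line. Such low counts were not particular to those genes. EV 2A, the library of lowest depth, also had the highest sums of stromal, T or NK and mast cell markers, at 1.75, 1.44 and 0.215 CPM. Since these 2 lines bear on many members, values without them are given below, and the part of proliferation or of these lines in any difference was otherwise not tested.

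Per kilobase of exon, Ezh2 was the most abundant member and Pcgf2 the least, in both groups of lines. Mean levels in EV lines, in RPKM (TMM-scaled CPM per kilobase of exon), were 72.3 ± 7.71 (SD, n = 6) for Ezh2, 50.6 ± 7.76 for Suz12, 24.8 ± 3.82 for Eed and 19.0 ± 5.35 for Bmi1. Ring1 followed with 13.6 ± 1.57, Cbx2 with 10.8 ± 3.45, Ezh1 with 6.16 ± 1.86, Cbx8 with 5.15 ± 0.754, Cbx7 with 3.42 ± 0.892 and Pcgf2 with 0.551 ± 0.482 RPKM. From Eed down to Cbx7 each member's range over the 6 EV lines overlapped that of the next, so that their order is not separated by the spread between lines. In BCR-ABL1 lines the means were 59.7 ± 5.64 RPKM for Ezh2 and 58.9 ± 2.83 RPKM for Suz12, with overlapping ranges. Eed, at 30.8 ± 0.552 RPKM, Bmi1, at 22.2 ± 1.20 RPKM, Cbx2, at 12.7 ± 0.508 RPKM, Ring1, at 8.82 ± 0.349 RPKM, and Cbx8, at 5.90 ± 0.675 RPKM, were each apart from their neighbours in the order. Cbx7 at 3.96 ± 0.344 RPKM and Ezh1 at 3.89 ± 0.196 RPKM overlapped, and Pcgf2 was again apart at 0.852 ± 0.0886 RPKM. Among 14998 tested genes with an exon length, the mean over all lines put Ezh2 at percentile 95.5, Cbx7 at 45.3 and Pcgf2 at 20.9.

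**Figure D1:**
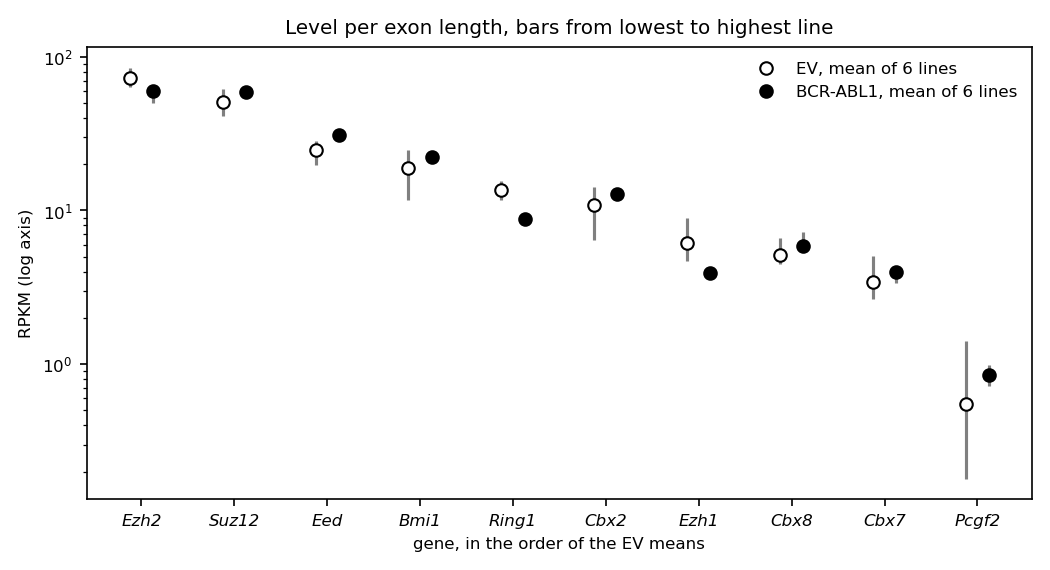
Level of each Polycomb gene in RPKM on a log axis, for EV lines (open circles) and BCR-ABL1 lines (filled circles), as the mean of 6 lines with a bar from the lowest to the highest line. Ezh2 leads in both groups with 72.3 and 59.7 RPKM, Pcgf2 is lowest with 0.551 and 0.852 RPKM.

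None of the 10 members was called as changed by more than 1.5-fold between BCR-ABL1 and EV lines in the edgeR quasi-likelihood test (glmTreat, adjusted p below 0.05), where 12.5% of the 15038 genes tested were, 5.99% higher and 6.49% lower. No member had an unadjusted p under 0.05 in this test, nor with DESeq2 or the likelihood ratio fit. Against no change at all, 4 of 10 members passed, with Eed higher and Ring1, Ezh1 and Ezh2 lower in BCR-ABL1 lines. That share is no larger than the 48.5% of all genes that passed, 22.5% higher and 25.9% lower. In mouse 1 alone 6 of 10 members passed against no change, where 68.2% of all genes did, and in mouse 2 alone 4 of 10, where 18.9% did. The median absolute log2 fold change was 0.257 over the members and 0.398 over all tested genes. The signed medians were 0.21 and -0.02. Lines of 1 mouse share that animal, so these p-values measure the spread between lines of 2 mice, and in such bulk RNA fewer cells that use a gene and less RNA per cell cannot be told apart.

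**Figure D2:**
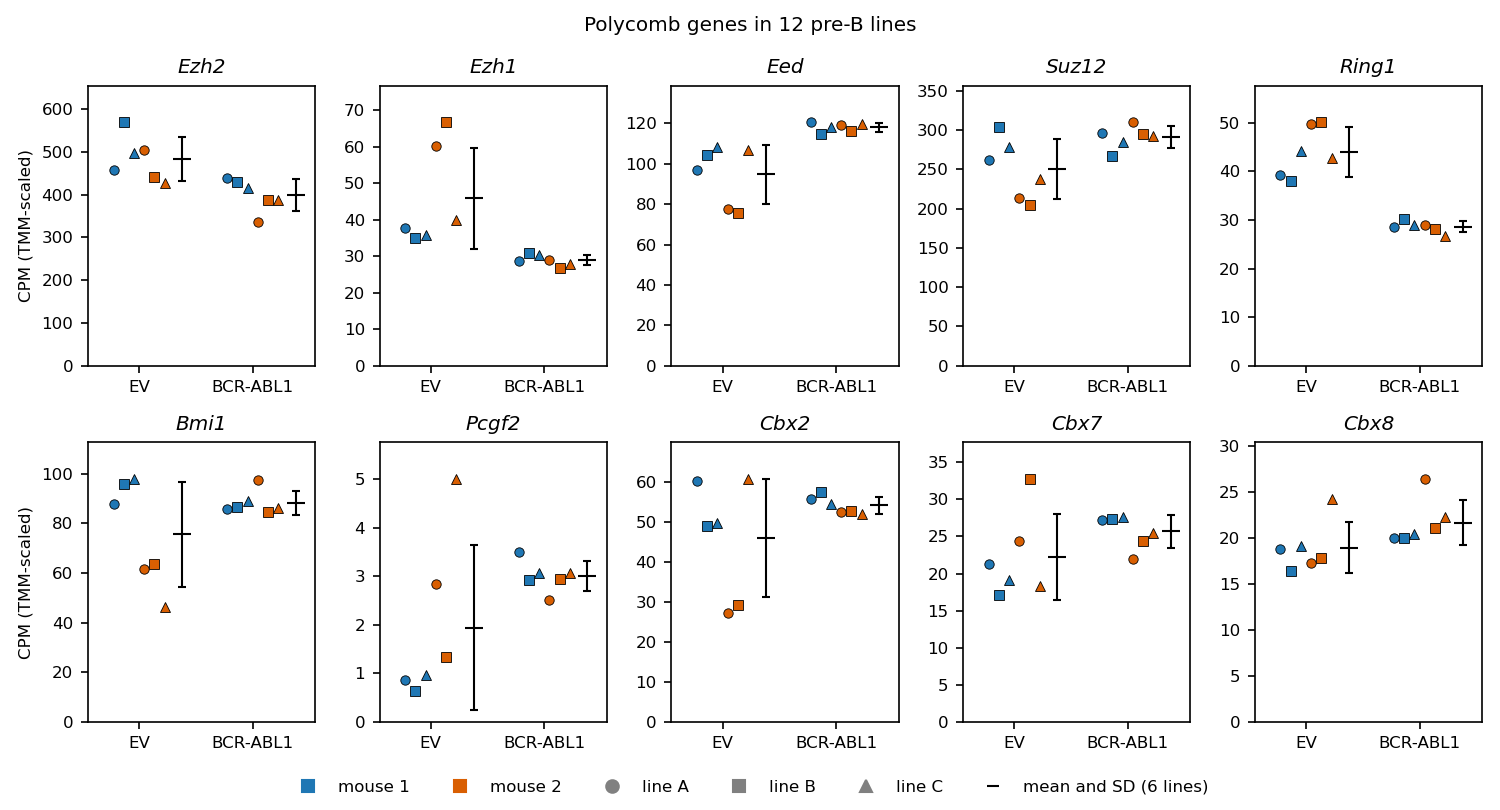
CPM of each Polycomb gene in the 6 EV and 6 BCR-ABL1 lines, coloured by mouse and shaped by line letter, with the mean and SD of each group beside the points. The BCR-ABL1 lines lie closer together than the EV lines, least so for Ezh2 and Cbx8. All EV lines are above them for Ezh1 and Ring1, and all are below them for Eed.

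Ezh2, the main PRC2 methyltransferase of dividing cells (chr6:47530139-47595341 on GRCm38, as are the gene positions below), was modestly lower in BCR-ABL1 lines. Its level was 459, 568 and 497 CPM in EV 1A, 1B and 1C and 503, 442 and 428 CPM in EV 2A, 2B and 2C. In BCR-ABL1 lines it was 438, 429 and 416 CPM for mouse 1 and 335, 386 and 386 CPM for mouse 2. The BCR-ABL1 lines of mouse 1 reached into the range of the EV lines of mouse 2, so the groups overlapped, but within each mouse every EV line was above every BCR-ABL1 line. This difference of -0.28 on the log2 scale had a standard error of 0.08, with an adjusted p of 1 at 1.5-fold and 0.0191 against no change (edgeR). Without BCR-ABL1 1C the latter was 0.0529. With EV 2A and EV 2B left out, the log2 difference was -0.30, with an adjusted p of 0.0231 against no change (edgeR).

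Ezh1, the paralog better known from resting cells (chr11:101191115-101226463), was lower in all BCR-ABL1 lines. EV lines of mouse 1 held 37.7, 35.0 and 35.7 CPM, EV 2A and EV 2B held 60.1 and 66.6 CPM, and EV 2C held 40.0 CPM. All 6 BCR-ABL1 lines lay between 26.9 and 30.8 CPM, below the lowest EV line. In the fit, Ezh1 had a log2 fold change of -0.66 with a standard error of 0.17, a fold of 0.631, adjusted p = 0.483 at 1.5-fold and 0.00561 against no change (edgeR). It shrank to -0.37 without EV 2A and EV 2B, where it still passed the test against no change at an adjusted p of 0.000929, as did 49.5% of all genes.

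Eed, which binds the methyl mark and activates the enzyme (chr7:89954654-89980983), was higher in all BCR-ABL1 lines. It stood at 96.7, 104 and 108 CPM in the EV lines of mouse 1, at 77.8 and 75.5 CPM in EV 2A and EV 2B and at 107 CPM in EV 2C. BCR-ABL1 lines spanned only 115 to 120.5 CPM, all above the highest EV line. Its log2 difference of 0.32, with a standard error of 0.10, had an adjusted p of 1 at 1.5-fold and 0.0141 against no change (edgeR). Leaving out EV 2A and EV 2B brought it to 0.17, with an adjusted p of 0.00740 against no change.

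Suz12, the scaffold of PRC2 (chr11:79993106-80034123), did not pass either test over all lines. EV lines of mouse 1 had 262, 304 and 279 CPM and those of mouse 2 had 214, 205 and 238 CPM, against 296, 267 and 285 CPM and 309.7, 295 and 293 CPM in BCR-ABL1 lines. In mouse 2 the BCR-ABL1 lines were all higher, whereas in mouse 1 the groups overlapped. Fitted over all lines, the log2 difference was 0.22 with a standard error of 0.10, and the adjusted p against no change was 0.0719 without and 0.0476 with the mouse as a block (edgeR). With the block 52.3% of all genes passed, and at 1.5-fold the block called 14.7% of all genes and none of the members. Without EV 2A and EV 2B the log2 difference of Suz12 fell to 0.0936, with an adjusted p of 0.283 against no change (edgeR).

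Across the 4 PRC2 members the differences thus had both signs, with the catalytic subunits lower and Eed higher. None of 8 further PRC2 genes was called at 1.5-fold, where 12.5% of all genes were. Against no change 2 were higher and 2 lower, where 22.5% and 25.9% of all genes were. The summed levels of these 8 genes overlapped, at 984 to 1266 CPM in EV lines against 1117 to 1244 CPM with BCR-ABL1.

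Ring1, one of the interchangeable ubiquitin ligases of PRC1 (chr17:34020792-34024680), showed the smallest error for its difference among the members. EV lines had 39.3, 38.0 and 44.3 CPM in mouse 1 and 49.7, 50.1 and 42.7 CPM in mouse 2. In BCR-ABL1 lines it lay between 26.7 and 30.2 CPM, below every EV line and without overlap in either mouse. Ring1 had a log2 fold change of -0.62 with a standard error of 0.07, a fold of 0.650, with an adjusted p of 0.486 at 1.5-fold and 8.30e-05 against no change (edgeR). With each line left out in turn the latter stayed at or below 0.000374, and without EV 2A and EV 2B the log2 fold change was -0.53.

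Rnf2, the other ligase, was also lower in BCR-ABL1 lines. Its 72.7 to 86.1 CPM in EV lines overlapped the 58.9 to 73.8 CPM of BCR-ABL1 lines only through BCR-ABL1 2A, the highest of them. For Rnf2 the log2 difference was -0.32 with a standard error of 0.06, and the adjusted p was 1 at 1.5-fold and 0.00256 against no change (edgeR). Both ligases were therefore at lower levels. The log2 fold changes of Ring1 and Rnf2 were -0.46 and -0.43 in mouse 1 and -0.75 and -0.18 in mouse 2. Their ratio is compared below.

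Bmi1, the Pcgf protein best known for silencing Cdkn2a (chr2:18677018-18686629), split by mouse in EV lines. They held 87.8, 95.9 and 98.0 CPM in mouse 1 but 61.6, 63.4 and 46.3 CPM in mouse 2. BCR-ABL1 lines lay between 84.6 and 97.5 CPM, with 2A highest, and resembled the EV lines of mouse 1 in level. Bmi1's log2 difference of 0.23, with a standard error of 0.18, had an adjusted p of 1 at 1.5-fold and 0.267 against no change (edgeR). Without EV 2A and EV 2B this difference was 0.0960, with an adjusted p of 0.667 against no change (edgeR).

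Pcgf2, its paralog Mel18 (chr11:97688823-97700497), was the scarcest member and the most uneven. Its EV levels were 0.866, 0.635 and 0.967 CPM in mouse 1 and 2.85, 1.33 and 5.01 CPM in mouse 2, from counts of 44 to 278. All BCR-ABL1 lines fell between 2.52 and 3.49 CPM, above the EV lines of mouse 1 and inside the spread of those of mouse 2. Over all lines the log2 fold change was 0.63 with a standard error of 0.46 and an adjusted p of 0.824 at 1.5-fold and 0.260 against no change (edgeR). Without EV 2C, the highest EV line, it was 1.19, with an adjusted p of 0.0818 at 1.5-fold and 0.0112 against no change. With EV 2A and EV 2B left out instead, the log2 fold change was 0.67, with an adjusted p of 0.305 against no change (edgeR).

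Cbx2, Cbx7 and Cbx8, the readers of the methyl mark, passed neither test over all lines. Cbx2 (chr11:119022962-119031270) had 60.2, 48.9 and 49.7 CPM in EV lines of mouse 1, 27.3 and 29.1 CPM in EV 2A and EV 2B, and 60.8 CPM in EV 2C, against 52.0 to 57.6 CPM with BCR-ABL1. The log2 difference of 0.24, with a standard error of 0.21, became -0.03 without EV 2A and EV 2B. Cbx2 was low in those 2 lines, and the BCR-ABL1 lines lay within the range of the other EV lines.

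Cbx7 (chr15:79915807-79971119) showed the opposite placing of the same lines. It had 21.3, 17.1 and 19.2 CPM in EV lines of mouse 1, 24.4 and 32.8 CPM in EV 2A and EV 2B, 18.3 CPM in EV 2C and 22.0 to 27.7 CPM in BCR-ABL1 lines. On the log2 scale it differed by 0.21, with a standard error of 0.15 and an adjusted p of 0.251 against no change (edgeR). Without EV 2A and EV 2B it was 0.42, with an adjusted p of 0.00349 against no change, so that the result for Cbx7 depends on those lines.

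Cbx8 (chr11:119036305-119040969), next to Cbx2 on the chromosome and on the other strand, had 16.4 to 24.2 CPM in EV lines, where EV 2C was highest, and 20.0 to 26.4 CPM with BCR-ABL1, where 2A was highest. Cbx8 had a log2 fold change of 0.19 with a standard error of 0.10 and an adjusted p of 0.149 against no change (edgeR). Without EV 2C the adjusted p was 0.0186, in a fit where 55.3% of all genes passed. With EV 2A and EV 2B left out instead, the log2 fold change was 0.13, with an adjusted p of 0.386 against no change (edgeR).

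**Figure D3:**
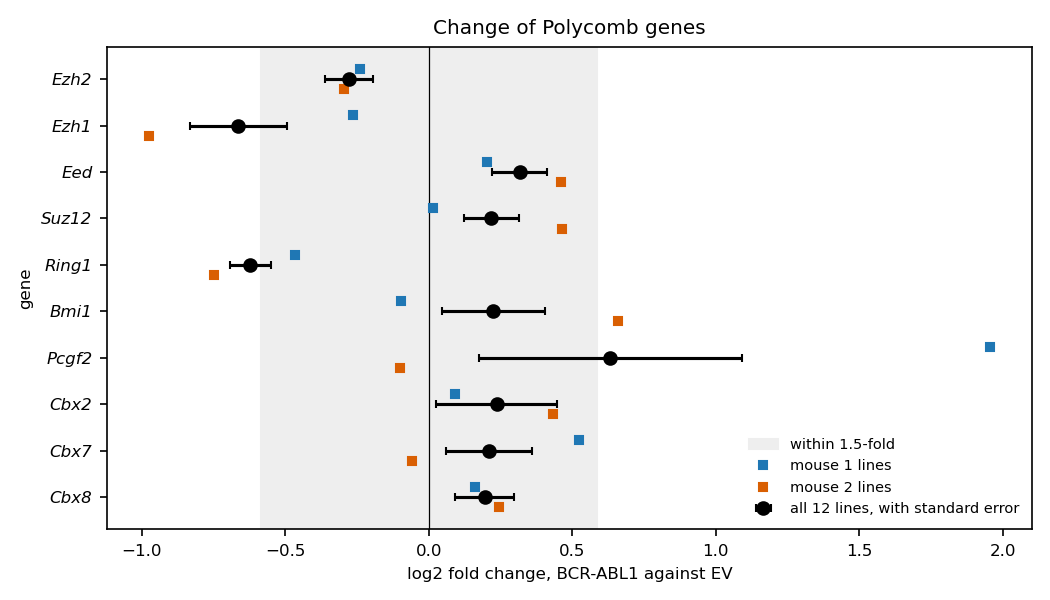
Log2 fold change of each Polycomb gene between BCR-ABL1 and EV lines, for all 12 lines with the standard error (black) and for the lines of mouse 1 (blue) and mouse 2 (orange), with the band within 1.5-fold in grey. Ezh1, Ring1 and Pcgf2 lie outside the band at -0.66, -0.62 and 0.63, and the mice are farthest apart for Pcgf2, at 1.96 and -0.10.

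EV lines differed more among themselves than BCR-ABL1 lines did, for every member. The SD of log2 CPM was larger in EV lines in 10 of 10 members, with a median of 0.288 in EV and 0.0739 in BCR-ABL1 lines. Over all tested genes the medians were 0.329 and 0.171, so a larger spread in EV lines was not particular to the members. Eed had an SD of 0.233 in EV and 0.0259 in BCR-ABL1 lines, Cbx2 one of 0.511 and 0.0570, and Ezh2 nearly the same in both, 0.150 and 0.141. EV 2A and EV 2B both lay above the other 4 EV lines for Ezh1, Cbx7 and Ring1 and below them for Eed, Suz12 and Cbx2. For the remaining 4 members they were not apart from those lines. No share of all genes so placed is given here, so this is not a trait shown to be particular to the members. With 3 of 10 members the groups did not overlap, BCR-ABL1 lines being above for Eed and below for Ezh1 and Ring1, against 25.6% of all genes, 12.1% with BCR-ABL1 above and 13.5% with EV above.

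Whether the change depended on the mouse was asked with an interaction term, which passed for 4 of 10 members and 16.9% of all genes. For Bmi1 the log2 fold change was 0.66 in mouse 2 and -0.10 in mouse 1, and this difference of 0.75 had an adjusted p of 0.00786 (edgeR). Suz12 followed the same pattern with 0.46 and 0.01, an adjusted p of 0.0281. In both genes it was the EV lines of mouse 2 that were low, while the ranges of the BCR-ABL1 lines of the mice overlapped. Ezh1 showed -0.97 in mouse 2 and -0.26 in mouse 1, with an adjusted p of 0.0383, and Pcgf2 showed -0.10 and 1.96, with an adjusted p of 0.0218. Pcgf2 was called at 1.5-fold in mouse 1 alone, at an adjusted p of 5.09e-05 where 28.5% of all genes were called, and not in mouse 2, where 6.64% were. With each line left out in turn the difference held in 12 of 12 fits for Bmi1, 7 for Pcgf2, 4 for Suz12 and 1 for Ezh1. The 1 fit for Ezh1 was that without EV 2C, where 8 of 10 members and 36% of all genes passed. Mouse 2 here means 3 lines of each condition from 1 animal.

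Within a line, ratios of paralogs do not depend on library scaling, and 5 of them were compared by a two-sided exact permutation test with all 924 ways to label the lines. None passed after adjustment over the 5. Ring1 to Rnf2 came nearest. Its count ratio was 0.529, 0.452 and 0.515 in EV lines of mouse 1 and 0.618, 0.650 and 0.587 in those of mouse 2, against 0.469, 0.499 and 0.492 and then 0.394, 0.438 and 0.426 in BCR-ABL1 lines. The groups were apart in mouse 2 only, since those of mouse 1 overlapped. The mean log2 difference was -0.30 with a standard error of 0.10, exact p = 0.0152, adjusted p = 0.0758.

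The Ezh1 to Ezh2 ratio was 0.0616 to 0.151 in EV lines, highest in EV 2A and EV 2B, and 0.0653 to 0.0867 in BCR-ABL1 lines, so that Ezh2 dominated in every line. The mean log2 difference of -0.34 had a standard error of 0.20, exact permutation p = 0.134, adjusted p = 0.335. In mouse 2 the EV lines, at 0.0936 to 0.151, were apart from the BCR-ABL1 lines, at 0.0697 to 0.0867, whereas in mouse 1 the groups overlapped. The log2 difference was -0.65 in mouse 2, -0.0302 in mouse 1 and -0.0683 without EV 2A and EV 2B. Pcgf2 to Bmi1 covered 0.00670 to 0.108 in EV lines and 0.0260 to 0.0408 in BCR-ABL1 lines. In mouse 1 all EV lines were at or below 0.00996 and all BCR-ABL1 lines at or above 0.0338, whereas in mouse 2 the groups overlapped. The difference of 0.74 had a standard error of 0.64, exact permutation p = 0.260, adjusted p = 0.433.

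Cbx8 to Cbx7 and Cbx2 to Cbx7, which set the readers against each other, differed by -0.04 and 0.06 on the log2 scale, with standard errors of 0.21 and 0.33 and exact permutation p of 0.846 and 0.820. Cbx2 to Cbx7 was 2.59 to 3.32 in 4 EV lines but 1.12 and 0.889 in EV 2A and EV 2B, on either side of the 1.97 to 2.40 of BCR-ABL1 lines. Its log2 difference was -0.43 in mouse 1 and 0.56 in mouse 2, where those 2 lines belong. Without them it was -0.45, with an exact permutation adjusted p of 0.0238. Those were the only EV lines below the BCR-ABL1 lines and were left out after seeing the data. Their removal set the groups fully apart, where the test gives its smallest value, so this p is no support for a difference. The ratio of Cbx2 to Cbx7 therefore depended on which EV lines were used.

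**Figure D4:**
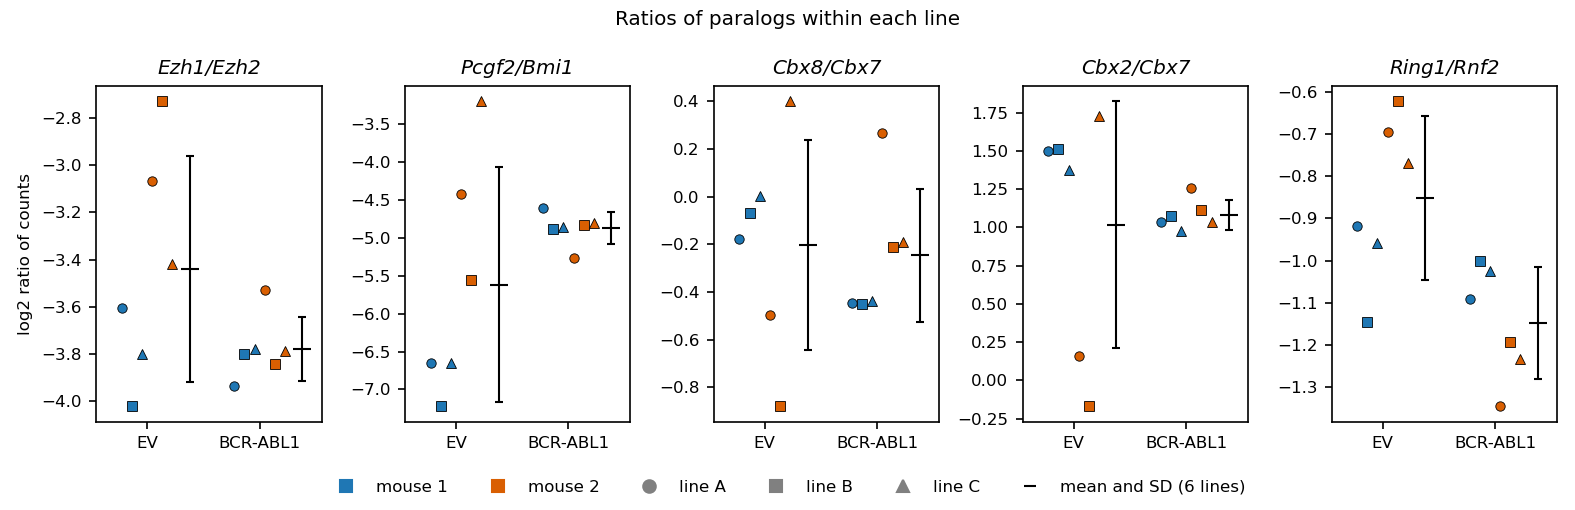
Log2 ratio of the counts of paralogs in each line, by group, coloured by mouse and shaped by line letter, with the mean and SD of 6 lines. EV lines spread more than BCR-ABL1 lines in all 5 ratios, though only slightly more in Ring1 to Rnf2. That ratio has means of -0.85 in EV and -1.15 in BCR-ABL1 lines, and its groups are apart in mouse 2 only.

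Among the 21 tested of 23 PRC1 partners 2 were lower in BCR-ABL1 lines at 1.5-fold and none was higher, against 6.49% and 5.99% of all genes. Against no change 4 were higher and 8 lower, where 22.5% and 25.9% of all genes were. Phc1, a polyhomeotic subunit that lets PRC1 particles join, was 19.5 to 25.2 CPM in EV lines of mouse 1, 16.1 to 18.0 CPM in those of mouse 2 and 8.84 to 11.8 CPM with BCR-ABL1, without overlap. A log2 fold change of -0.87 was fitted, with a standard error of 0.11, adjusted p = 0.0344 (edgeR), and this call held in 11 of 23 alternatives. Scml4, a relative of the Scm subunits, was at 24.6 to 36.6 CPM in 5 EV lines but at 5.63 CPM in EV 2C, just below the 5.64 to 11.6 CPM of BCR-ABL1 lines. For Scml4 the log2 difference of -1.60, with a standard error of 0.43, had an adjusted p of 0.0242 (edgeR) and was called in 16 of 23 alternatives.

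Genes that act against Polycomb were not called at 1.5-fold, where 12.5% of all genes were. In the deubiquitinase complex PR-DUB 0 of 9 tested genes were called, of the H3K27 demethylases Kdm6a and Kdm6b 0 of 2, and of the Trithorax and COMPASS genes, which place active marks, 0 of 11. Against no change the PR-DUB genes had 1 higher and 2 lower, the demethylases none and the Trithorax list 4 higher and 4 lower. Of all genes 22.5% were higher and 25.9% lower in that test. Kdm6a, named after its values were seen, differed by mouse in both conditions, since the 6 lines of mouse 1 had 74.9 to 83.3 CPM and the 6 of mouse 2 had 122 to 181 CPM.

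Cdkn2a, which these subunits are known to repress, and the nearby Cdkn2b and Mtap were higher in all BCR-ABL1 lines than in any EV line. Of all genes 12.1% had BCR-ABL1 lines so placed. Cdkn2a (chr4:89274471-89294653) had 0.282, 0.231 and 0.230 CPM in EV lines of mouse 1, 0.552, 0.814 and 0.866 CPM in those of mouse 2 and 25.0 to 28.9 CPM with BCR-ABL1. This difference of 5.77 on the log2 scale had a standard error of 0.34 and an adjusted p of 2.03e-06 (edgeR). Its level was below 1 CPM in every EV line and nearly even over the BCR-ABL1 lines. Counts per gene do not separate Ink4a from Arf, whose starts are shown above. The difference between the mice, -1.60 on the log2 scale with an adjusted p of 0.000686 (edgeR), lay in the EV lines, whose ranges were apart between the mice while those of the BCR-ABL1 lines overlapped.

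Cdkn2b, the neighbouring gene of a related inhibitor, had no count in EV 1A, 1B, 1C and 2B, 1 count in EV 2C and 5 in EV 2A, against 0.780 to 1.25 CPM in BCR-ABL1 lines, adjusted p = 0.000394 (edgeR). Mtap, an enzyme of methionine salvage on the other side of Cdkn2a, had 30.2, 36.3 and 34.4 CPM in EV lines of mouse 1, 29.4, 13.3 and 67.4 CPM in those of mouse 2 and 86.0 to 104 CPM with BCR-ABL1. Mtap had a log2 fold change of 1.43, with a standard error of 0.31, adjusted p = 0.0162 (edgeR). Beside these, the 10 members summed to 984 to 1228 CPM in EV lines, and the BCR-ABL1 lines, at 1023 to 1104 CPM, stayed within that range. Most of this sum was Ezh2 and Suz12, with means of 483 and 250 CPM in EV and 398 and 291 CPM in BCR-ABL1 lines. It therefore does not show changes of scarcer members such as Ezh1 and Ring1. The part of any member in the level of the locus was not tested.

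**Figure D5:**
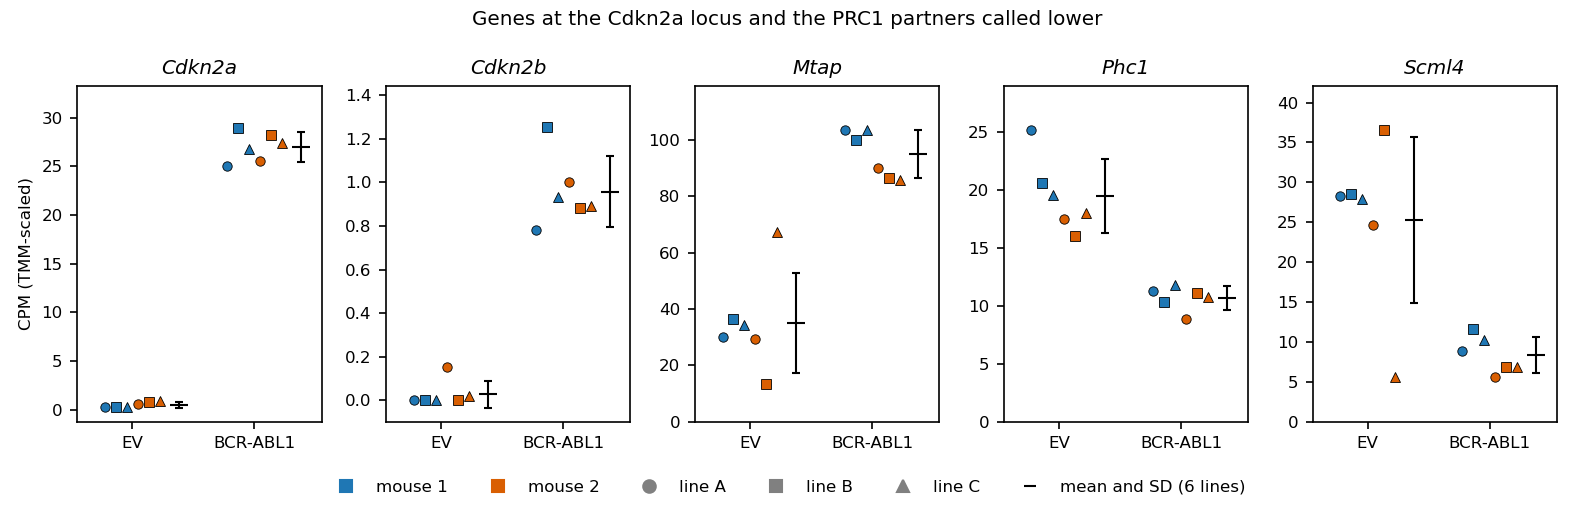
CPM of Cdkn2a, Cdkn2b and Mtap and of the PRC1 partners Phc1 and Scml4 in each line, coloured by mouse and shaped by line letter, with the mean and SD of 6 lines. The 3 genes of the locus are higher in all BCR-ABL1 lines, Phc1 is lower in all of them, and EV 2C sits at the BCR-ABL1 level of Scml4 with 5.63 CPM.

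Of the 36 developmental genes, such as the late Hox genes and Pax6, that PRC2 is known to silence outside their own tissues, 35 did not reach the filter and 1 was tested. Lhx2, a LIM homeobox factor, had at most 0.0154 CPM in EV lines of mouse 1, 0.307 to 0.613 CPM in those of mouse 2 and 0.593 to 1.34 CPM with BCR-ABL1. Lhx2 had a log2 fold change of 1.92, adjusted p = 0.218, and with the mouse as a block 2.48, adjusted p = 0.0216 (edgeR). The summed level of the list was 0.260 to 2.13 CPM in 5 EV lines, 8.0 CPM in EV 2A and 0.772 to 1.51 CPM in BCR-ABL1 lines. Each of the other 35 genes was at most 0.170 CPM in every BCR-ABL1 line and at most 0.767 CPM in EV 2A. They were not tested.

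Genes of cell division and markers of cell types were set beside these values. Of 18 proliferation genes none was called at 1.5-fold, while 7 were higher and 1 lower against no change, and 16 had a positive log2 fold change, as had 48.3% of all tested genes. Over all genes 22.5% were higher and 25.9% lower against no change. Pcna, the replication clamp and the gene with the highest RPKM of that list, was at 363 to 561 CPM in EV lines against 590 to 687 CPM with BCR-ABL1. Ighm, the heavy chain of the pre-B receptor, was lower in BCR-ABL1 lines with a log2 fold change of -1.07, adjusted p = 0.00129 (edgeR), as the 1 called B lineage marker of 10. Cd3d, at most 0.644 CPM, had a log2 fold change of -2.67 and the globin gene Hbb-bt, at most 12.4 CPM, one of 1.72, with adjusted p of 0.000511 and 0.0296 (edgeR). Cd68 was the only myeloid marker tested of 9 and was not called. The part of these markers in the differences of the Polycomb genes was not tested.

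For each member but Bmi1, where 1 is given, the 2 tested genes with the most similar log2 CPM over the 12 lines are given as a description, since the points are not independent: 6 lines share each condition and 6 come from each mouse. Eed was closest to E2f6, the E2F repressor of a PRC1 variant (r = 0.987, n = 12), and Tex10 (0.981). Suz12 was closest to Lnpk (0.980) and Knl1 (0.962), a kinetochore protein, and Ezh2 to the predicted genes Gm38235 (0.963) and Gm38062 (0.955). Ezh1 was closest to H2-Q5 (0.994) and Osbpl5 (0.989), and Ring1 to D230017M19Rik (0.988) and Astl (0.985). Bmi1 was closest to Ccdc91 (0.961), and Pcgf2 to Dtwd2 (0.983) and Cnr2 (0.969). Among the readers, Cbx2 was closest to Dcaf4 (0.979) and Cox18 (0.973), Cbx7 to Dgcr6 and Tldc1 (both 0.948), and Cbx8 to 4930507D05Rik (0.939) and Zfyve21 (0.935).

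Among the members themselves, Eed and Suz12 ran together (r = 0.883, n = 12) and Ezh1 with Ring1 (0.905), while Ezh1 ran against Eed (-0.975) and Suz12 (-0.928). Ezh2 was only weakly related to Eed (-0.477) and Suz12 (-0.283) and ran most against Cbx8 (-0.862). These coefficients join lines of both conditions and are described without a test.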

How the data were processed

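RNA was sequenced from 6 EV and 6 BCR-ABL1 pre-B lines on stranded total RNA libraries, without pooling of lines. The authors deposited whole-number read counts per gene for 51826 genes. The submitters' processing notes name FastQC 0.11.5, Trimmomatic 0.36, TopHat2 2.1.1, Bowtie2 2.3.2, featureCounts 1.5.3, R 3.6.1 and edgeR 3.18.1 with GRCm38. The strand setting of the counting is not given in the sources used here. No column of other samples was present.

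All fits used edgeR 4.0.16 (with limma 3.58.1) under R 4.3.3, with DESeq2 1.42.0 as an alternative. Tables and plots were made in Python 3.11.15 with matplotlib 3.10.9. Gene symbols and exon lengths came from GENCODE M21, which held 51633 identifiers. After filterByExpr and TMM scaling, glmTreat on the quasi-likelihood fit tested 15038 genes against a 1.5-fold change, with Benjamini-Hochberg adjustment over all of them and a threshold of 0.05. Standard errors come from the spread of log2 CPM (prior count 2) between lines, and paralog ratios used a pseudocount of 0.5. The floor of 3 counts covers counting error alone, because PCR copies were not separated by molecular identifiers. Library depth ran from 34791011 to 66011225 counts on genes. The fits were tested on simulated data.

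The members, gene lists and tests were chosen with earlier results of these data known. Genes named are the members, called genes of the Polycomb, opposing and Cdkn2a lists, Rnf2, up to 5 called genes or the most abundant gene of other lists, and the 2 genes most like each member. Of the genes this rule names, 1 is not reported here. Alternatives were other scaling, filters and tests, each mouse alone, a mouse or line pair block and each line left out. Leaving out EV 2A and EV 2B, and all alternatives of the test against no change, were added after seeing the data.

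EV and BCR-ABL1 lines share numbers, and by the labels equal digits mean the same mouse. Their deviations from the group means correlated between 0.0853 and 0.240 within a mouse and between -0.203 and -0.0636 across mice, so that the mouse pairs the lines. For equal letters, after removal of mouse means, the range was -0.109 to 0.0856.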

Additional observations from a re-analysis of the deposited data

Results flagged for a closer look

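The change from EV to BCR-ABL1 lines differed between the mice, by the interaction test in edgeR, for 5 of the 16 genes examined for it, against 16.9% of all genes. Mouse 2 minus mouse 1 was -0.72 on the log2 scale for Ezh1, 0.44 for Suz12, 0.75 for Bmi1, -2.05 for Pcgf2 and -1.60 for Cdkn2a, with adjusted p of 0.0383, 0.0281, 0.00786, 0.0218 and 0.000686. With each line left out in turn the difference held in 12 of 12 fits for Bmi1 and Cdkn2a, in 7 for Pcgf2, in 4 for Suz12 and in 1 for Ezh1.

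In 6 of 42 groups of 6 values 1 line lay far from the rest by Dixon's gap. The nominal rate of about 1 of 20 holds for independent groups of normal values. These groups share lines and genes, so whether 6 exceeds that rate was not tested. BCR-ABL1 2A was the highest BCR-ABL1 line for Bmi1 at 97.5 CPM (next 89.2), for Cbx8 at 26.4 CPM (next 22.2), for the Ezh1 to Ezh2 ratio at 0.0867 (next 0.0729) and for the Cbx8 to Cbx7 ratio at 1.20 (next 0.876). EV 2C was the highest EV line for Cbx8 at 24.2 CPM (next 19.2). EV 2A had 0.153 CPM of Cdkn2b, with 0.0180 CPM in the next EV line.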

How the results depend on the processing

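No member was called at 1.5-fold under DESeq2's size factors, other filters, the likelihood ratio fit, DESeq2, either block, mouse 2 alone, each line left out or EV 2A and EV 2B left out, and mouse 1 alone called 1, Pcgf2. The mouse block changed no member's call at 1.5-fold. Against no change 1 member was higher and 3 lower. The higher count was 2 with the mouse block, 3 in mouse 1, 2 in mouse 2, 2 without EV 2A and EV 2B and 1 to 3 with each line left out, reaching 3 without EV 2C. Of all genes 48.5% passed in the fit of all lines, 52.3% with the block, 68.2% in mouse 1, 18.9% in mouse 2, 49.5% without EV 2A and EV 2B and 55.3% without EV 2C. The lower count was 3 or 2 throughout, 2 to 3 with each line left out.

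The 5 partner and opposing lists had 8, 21, 9, 2 and 11 genes tested. Of these, 0 were higher and 2 lower at 1.5-fold, where 5.99% and 6.49% of all genes were. Against no change there were 11 and 16, where 22.5% and 25.9% of all genes passed. At 1.5-fold mouse 1 alone gave 1 higher and 4 lower, where 28.5% of all genes were called in either direction. Mouse 2 alone gave 0 lower, where 6.64% were called in either direction. No filter, the likelihood ratio fit, DESeq2, the line pair block and leaving out EV 2A and EV 2B each left 1 lower, and leaving out single lines 0 to 3. Phc1 was lost without EV 1A, 1B or 1C or any BCR-ABL1 line but 1A, at an adjusted p of up to 0.133 without EV 1A. Scml4 was lost without EV 1A or any BCR-ABL1 line of mouse 2, at up to 0.0538. Cdkn2a was called in 23 of 23 alternatives and Mtap in 22, not in mouse 2 alone.

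The interaction of mouse and condition, passed by 4 members and 16.9% of all genes, was passed by 8 members and 36% of all genes without EV 2C and by 1 to 3 members and 12.3% to 19.6% of all genes with another line left out, which spans 1 to 8 members. The log2 fold change turned to -0.10 for Bmi1 in mouse 1, to -0.10 for Pcgf2 and -0.0597 for Cbx7 in mouse 2, and to -0.0303 for Cbx2 without EV 2A and EV 2B.

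Among the ratios, Ring1 to Rnf2 was -0.0312 in mouse 1 and -0.56 in mouse 2 and -0.36 to -0.25 with a line left out, passing at an exact permutation adjusted p of 0.0108 without EV 1B. Ezh1 to Ezh2 was -0.0302 in mouse 1 and -0.65 in mouse 2. Cbx2 to Cbx7 was -0.43 in mouse 1, 0.56 in mouse 2, -0.45 without EV 2A and EV 2B and -0.17 to 0.21 with a line left out, -0.11 without EV 2A and -0.17 without EV 2B. Pcgf2 to Bmi1 was -0.57 and Cbx8 to Cbx7 0.28 in mouse 2, and the latter spanned -0.18 to 0.0792 with a line left out, the highest without EV 2C. Within 1 mouse the exact test cannot go below 0.1. The cause of these shifts was not tested. Of the members, Pcgf2 had the fewest counts, 44 to 278 per line.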
